A study of Arabidopsis thaliana with 6 samples.

Results

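Ferritin and vacuolar iron transporter genes were followed in leaves of the Arabidopsis thaliana mutant essp3, which carries a lesion in the chromatin remodelling ATPase gene BRAHMA, and of wild type. The set holds 10 genes, 4 ferritin genes (FER1 to FER4) and 6 genes of the vacuolar iron transporter family (VIT1, VTL1, VTL2, VTL5, AT3G43630 and AT3G43660). They were found by their locus codes among 22746 probe sets of Affymetrix ATH1 arrays, control probe sets not counted, and each had 1 probe set with no sign of probes shared with another gene in its name. The genes were chosen by family with the mutant and wild-type signals of these same arrays already known. Their differences between the genotypes are therefore given as a description, without p-values.

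Mutant and wild type were each measured on 3 arrays, labelled as biological replicates, with total RNA from leaves of seedlings 2 weeks old that had grown on agar plates with 1.5% sucrose. Days had 16 h of light at 22 °C and 8 h of dark at 20 °C. The wild type is the reporter line ProβCG:GUS, where β-glucuronidase is made under a seed storage protein promoter, and the labels do not say whether the mutant carries that reporter. They name the allele both brm5 and brm-6, and give neither the lesion nor the hour of harvest.

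Ferritins are protein shells that take up iron and hold it in a form that does not react with oxygen species. In plants they sit mainly in plastids, and their transcripts are known to be high when iron is ample and low when it is short. FER1 is the main ferritin of leaves together with FER3 and FER4, while FER2 is known as the ferritin of seeds. VIT1 carries iron into the vacuole and places iron in the embryo, and the VIT1-like (VTL) proteins are smaller relatives, of which VTL1, VTL2 and VTL5 are known to have low transcript levels under iron shortage.

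The leaf ferritin genes read lower in the mutant than in wild type, FER1 most, then FER4, then FER3, and the vacuolar transporter relative VTL2 was lower as well. These 4 genes were called Present, the array software's term for a detected transcript, on all 6 arrays. No mutant array reached the lowest wild-type array for any of them. The other 6 genes were called Present on at most 2 arrays each, so their levels in these leaves are uncertain.

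**Figure D1:**
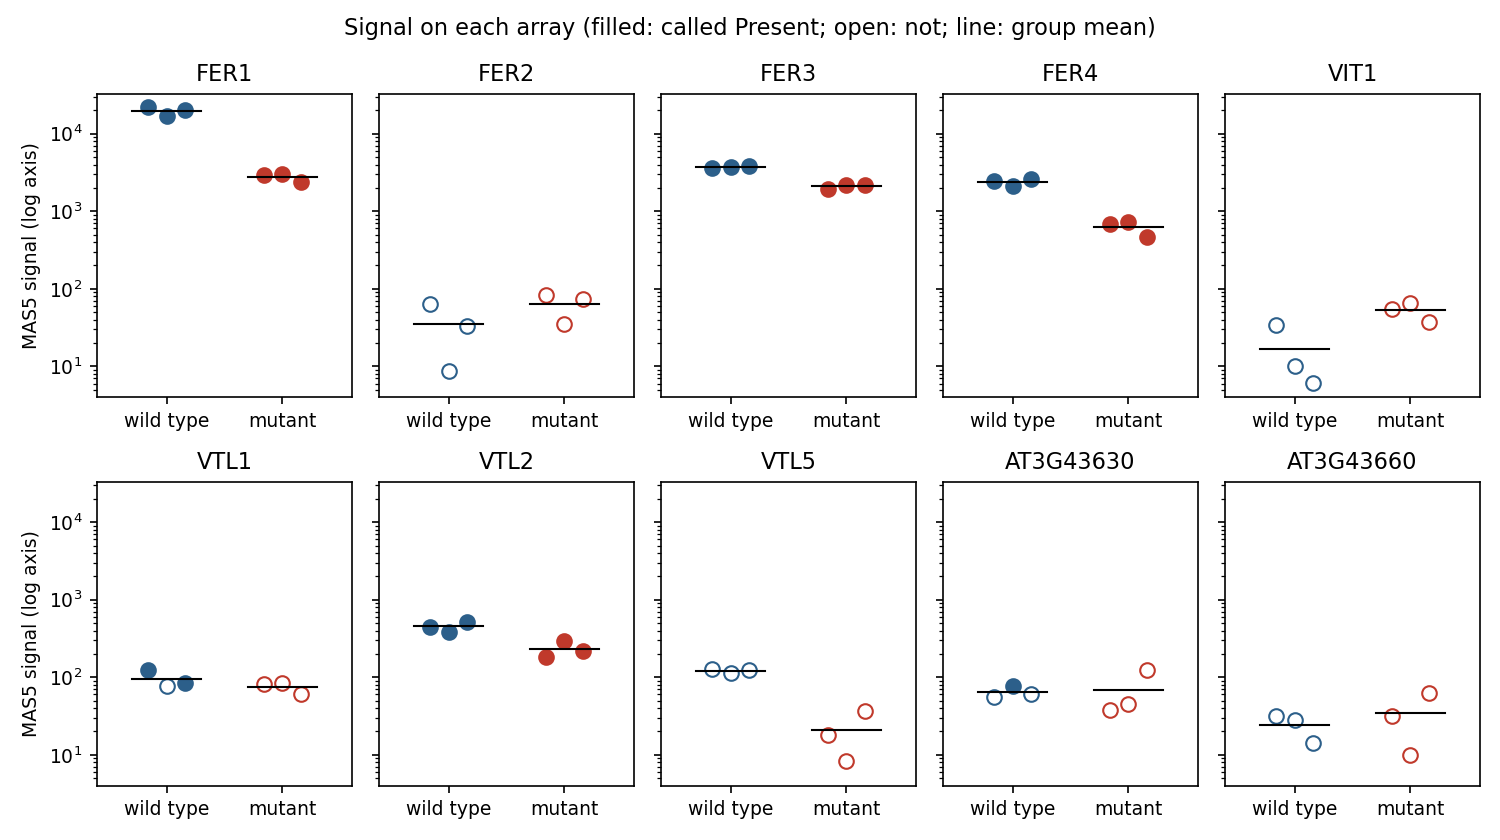
Scaled MAS5 signal (vertical log axis) of each of the 10 genes on the 3 wild-type and 3 mutant arrays, 1 panel a gene; filled points were called Present, open points were not, and lines are group means. FER1, FER3, FER4 and VTL2 are filled throughout, with all mutant points below all wild-type points. That order was seen for 21.6% of all probe sets Present on 3 or more arrays. The other panels hold mostly open points. Heights in different panels come from different probes and do not compare genes.

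FER1, AT5G01600, gave signals of 21877, 16753 and 20090.4 on wild-type replicates 1, 2 and 3. On mutant replicates 1, 2 and 3 it gave 2935, 3017.5 and 2417. The lowest wild-type array thus stood 5.55-fold above the highest mutant array, while the arrays of a group lay within 0.38 of each other on the log2 scale in wild type and 0.32 in the mutant. Group means were 19574 ± 2601 in wild type and 2789.7 ± 326 in the mutant (SD, n = 3 each). The log2 difference, mutant minus wild type, was -2.81 (SE 0.13), which leaves the mutant at 14.3% of the wild-type level. In the order of log2 differences over all 13626 probe sets tested, FER1 stood at place 11 from the lowest.

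FER4, AT2G40300, a ferritin also found in mitochondria, read 2427, 2121 and 2578 on wild-type replicates 1, 2 and 3. The mutant values were 689.7, 733.7 and 471 in the same order. Mutant replicate 3 lay below the other two, and the mutant arrays spread over 0.64 on the log2 scale against 0.28 in wild type, still well short of the gap between the groups. Group means were 2375 ± 233 in wild type and 631 ± 141 in the mutant (SD, n = 3 each). The log2 difference was -1.93 (SE 0.17), which is a 3.82-fold lower level. FER4 stood at place 56 from the lowest.

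FER3, AT3G56090, had the closest replicates of the 4 genes. It read 3618, 3674 and 3872 in wild type and 1925, 2164 and 2188 in the mutant, replicates 1 to 3 in each. The arrays of a group differed by 0.10 in wild type and 0.18 in the mutant on the log2 scale, and the lowest wild-type array was 1.65-fold above the highest mutant array. With a log2 difference of -0.83 (SE 0.12), the mutant level was 56.2% of wild type, so the FER3 difference was smaller than those of FER1 and FER4 by more than their SEs. Mutant replicate 3, the lowest mutant array for FER1 and FER4, was the highest one for FER3.

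FER2, AT3G11050, the seed ferritin gene, was not called Present on any array. Its signals were 62.7, 8.78 and 33.2 on wild-type replicates 1 to 3 and 82.8, 34.7 and 72.9 on mutant replicates 1 to 3. The groups overlapped, and at signals this low no level or difference was shown for FER2 in either genotype. The 6 embryo and seed marker genes examined, among them CRA1, CRU3, OLEO1 and LEC1, also had no Present call on any array.

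VTL2, AT1G76800, was the vacuolar family gene detected throughout. Wild-type replicates 1, 2 and 3 read 451, 388.5 and 520.7, and mutant replicates 1, 2 and 3 read 183, 296 and 219.6. Mutant replicate 2 came nearest to wild type, with the lowest wild-type array 1.31-fold above it. Group means were 454 ± 66.1 in wild type and 233 ± 57.6 in the mutant (SD, n = 3 each). The log2 difference was -0.98 (SE 0.21), or 50.7% of the wild-type level. The spread of VTL2 among mutant arrays, 0.69 on the log2 scale, was the widest of the 4 genes.

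VTL5, AT3G25190, read 126, 112 and 124 on the wild-type arrays and 18.1, 8.26 and 36.4 on the mutant arrays, replicates 1 to 3 in each, with no Present call on any array. Its 3 wild-type signals were close together and all above the mutant signals. Of wild-type signals from 100 to 150 over the whole array, 50.2% were called Present, so a signal of that size without a call is common. No fold is given because neither group was detected. Among the 7360 probe sets without a Present call on any array, 3.94% also had every mutant array below every wild-type array.

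VIT1, AT2G01770, the founding member of the family, was likewise never called Present. It read 34.0, 10.2 and 6.03 in wild type and 54.4, 66.1 and 37.4 in the mutant. All mutant arrays were above all wild-type arrays, the opposite order to VTL5, but the signals lay near the lowest values called Present, which ran from 26.3 to 49.2 among the arrays. Every mutant array was also above every wild-type array for 7.84% of the probe sets without a Present call. VTL1, AT1G21140, was Present on wild-type replicates 1 and 3 and on no mutant array, with 125, 76.8 and 84.4 in wild type and 82.8, 85.1 and 60.1 in the mutant, which overlap.

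AT3G43630 and AT3G43660 are also VIT1-like genes, with a single protein-coding gene between them on chromosome 3. The first was Present on wild-type replicate 2 alone and read 55.5, 76.8 and 61.3 in wild type against 37.8, 45.4 and 124.8 in the mutant. For the second, with no Present call, signals were 31.4, 27.8 and 14.1 in wild type and 31.2, 9.91 and 62.9 in the mutant. Both genes overlapped between the genotypes, and in both mutant replicate 3 was the highest array.

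A linear model was fitted over all 13626 probe sets with a Present call on 3 or more of the 6 arrays (limma, Benjamini-Hochberg adjustment, threshold of 0.05). All 4 members that entered it passed the threshold, each lower in the mutant, where 28.4% of all tested probe sets passed, 13.9% lower and 14.4% higher. Since the genes were chosen with this contrast known, nothing is read from that count. The same holds for the order of the arrays: mutant arrays were all below wild-type arrays for the 4 genes, as for 21.6% of tested probe sets. The median log2 difference was -1.46 over the 4 genes and -0.01 over all tested probe sets. The plot of all log2 differences shows FER1 and FER4 in the sparse lower tail and VTL2 and FER3 on its shoulder.

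**Figure D2:**
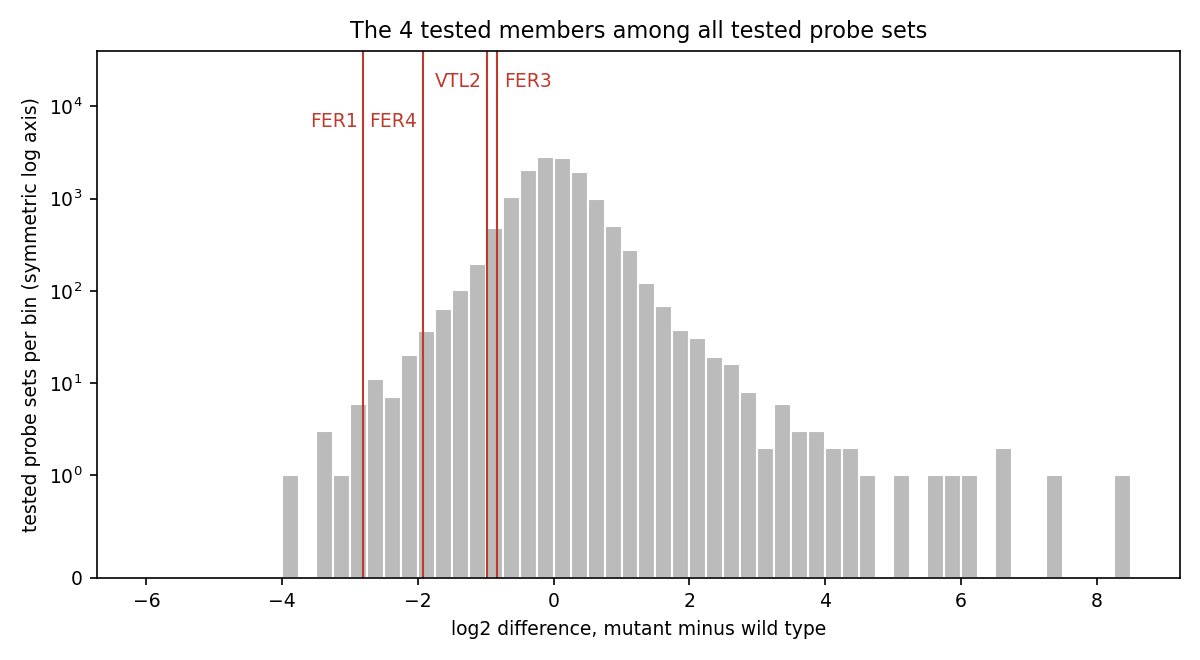
Number of tested probe sets (vertical symmetric log axis, bins of 0.25) by log2 difference, mutant minus wild type, with the 4 tested members as vertical lines. FER1 at -2.81 and FER4 at -1.93 lie where few probe sets remain, and VTL2 at -0.98 and FER3 at -0.83 lie nearer the bulk around 0.

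Leaving out 1 of 3 arrays cannot move a log2 difference by 1 SD of the replicates. The ranges for the 4 genes are therefore given only as a description. Leaving out each array in turn gave log2 differences from -2.92 to -2.71 for FER1, from -2.05 to -1.73 for FER4, from -1.17 to -0.82 for VTL2 and from -0.87 to -0.77 for FER3.

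**Figure D3:**
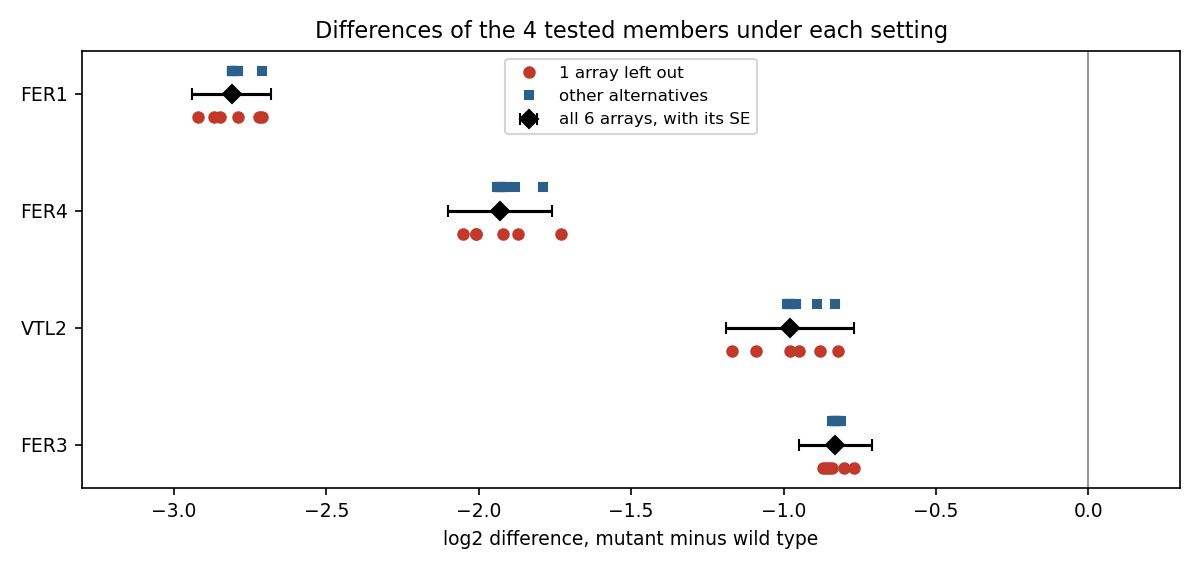
Log2 difference, mutant minus wild type, of FER1, FER4, VTL2 and FER3 from all 6 arrays (diamonds, bars are the SE), with 1 array left out (circles) and under the other alternatives (squares). The groups of arrays do not overlap for any of these genes, so leaving out 1 array cannot move a circle across 0. Squares for the replicate block, the detection filters and the fit without a variance trend equal the diamond by construction. The ranges of FER1 and FER4 do not meet those of the other genes.

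Every comparison here shares one limit. The names of the mutant arrays carry a different run code from those of the wild-type arrays, so array run and genotype cannot be told apart. The 25S ribosomal RNA control read 371 to 483 on mutant arrays and 4149 to 7797 on wild-type arrays, and its part in the results was not tested. The ratio of the 3′ to the 5′ control of GAPDH was 1.44 to 1.70 in the mutant and 1.68 to 1.83 in wild type, and that of actin 6.47 to 14.4 and 7.39 to 15.3. The 3 leaf markers with a probe set, RBCS1A, CA1 and RCA, were Present on all arrays, with summed signals of 146511 to 150273 in the mutant and 131734 to 156254 in wild type. Of 7 root markers, 5 had no Present call; PYK10 was Present on all arrays at 2253 to 2573 in the mutant and 2682 to 3229 in wild type. The summed root markers, made up mostly of PYK10, read 2478 to 2926 and 3207 to 3672, and their part in the ferritin differences was not tested. In whole leaves, fewer cells that express a gene and less RNA in each cell cannot be told apart.

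Other iron genes were taken from 6 lists, of which 55 of 77 genes were tested; 20 rose and 13 fell in the mutant. That is 60% of those tested, where 28.4% of all tested probe sets passed, 14.4% higher and 13.9% lower. The lists were drawn up with results of these data known, so their counts and shares are a description and nothing is read from them. Regulators of the iron deficiency response were the list with the largest share of rises. Of 10 tested, 7 rose and 2 fell, with a median log2 difference of 1.08. The falls were bHLH104 and URI, with log2 differences of -0.84 and -0.47 (both named after their values were seen). For URI the groups of arrays overlapped. An unmoderated test on linear signals left 4 rises and 1 fall among the regulators. The count of falls was 1 when any of 4 arrays was left out, namely replicates 1 and 2 of the mutant and replicates 2 and 3 of wild type. IMA1, which encodes a peptide that promotes iron uptake, rose from 116 ± 81.5 to 9232 ± 1318 (log2 difference 6.52, SE 0.32, limma adjusted p = 2.06e-08), although it was Present on only 1 wild-type array. BTS, an E3 ligase gene that restrains the response, rose 5.59-fold, from 766 ± 63.0 to 4309 ± 636 (limma adjusted p = 6.52e-08). For bHLH39, a transcription factor of the iron deficiency response also Present on 1 wild-type array, the log2 difference was 7.28 (SE 0.75, limma adjusted p = 1.53e-05), with 5.98 and 8.30 when wild-type replicate 1 or 2 was left out.

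PYE and ILR3 encode basic helix-loop-helix factors known to repress ferritin genes and VTL2 under iron shortage. Both are named here after their values were seen, and their part in the ferritin and VTL2 differences was not tested. PYE rose from 266 ± 76.9 to 662 ± 110.5 (log2 difference 1.34, SE 0.21, limma adjusted p = 0.000404). ILR3 read 2824 ± 164 in wild type and 2396 ± 487 in the mutant, with a log2 difference of -0.25 (limma adjusted p = 0.216). The clock-linked gene TIC and the phosphate starvation factors PHR1 and PHL1, all reported to act on FER1, had log2 differences of 0.10, -0.20 and -0.28, and none passed (limma adjusted p = 0.590, 0.396 and 0.443).

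Of the genes for iron uptake and movement through the plant, 4 of 10 tested rose and 3 fell, around a median of 0.02, beside 14.4% and 13.9% of all tested probe sets. OPT3, which loads iron into the phloem, rose 7.72-fold, from 661 ± 121 to 5055 ± 434 (limma adjusted p = 2.06e-08). FRO3, a mitochondrial ferric reductase gene, rose from 1481 ± 122 to 3404 ± 484 (limma adjusted p = 3.36e-05). NAS4, for synthesis of the metal chelator nicotianamine, rose by a log2 difference of 3.43 (SE 0.40, limma adjusted p = 4.42e-05), with 3.95 and 2.89 without wild-type replicates 1 and 3; it was Present on 1 wild-type array. Its relatives NAS3 and NAS1, for the same product, fell, with log2 differences of -1.80 and -0.81 (limma adjusted p = 5.21e-05 and 0.0120; both named after their values were seen). The root uptake transporter IRT1 read 36.7 ± 37.8 in wild type against 52.6 ± 6.40 in the mutant, with 1 Present call in all (named after its values were seen).

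Transporters of the vacuole, plastid and mitochondrion, the nearest in role to the VIT1 family, had 4 of 13 tested genes that rose and none that fell. The share called in either direction, 30.8%, was near the 28.4% of all tested probe sets, so that count does not set this list apart. All 4 calls were rises, where 14.4% of all tested probe sets were called higher, and the split by direction was not tested. ZIF1, which moves nicotianamine into the vacuole, rose 7.70-fold from 762 ± 73.3 to 5851 ± 158.5 (limma adjusted p = 8.64e-09). NRAMP4, which exports iron from the vacuole, rose 4.07-fold from 1269 ± 122 to 5148 ± 246 (limma adjusted p = 1.30e-07). FPN3, an iron exporter of organelles, had a log2 difference of 0.63 (limma adjusted p = 0.00385). VTL2, with its log2 difference of -0.98, lay below the lowest of these 13 genes, YSL6 at -0.12 (named after its values were seen).

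**Figure D4:**
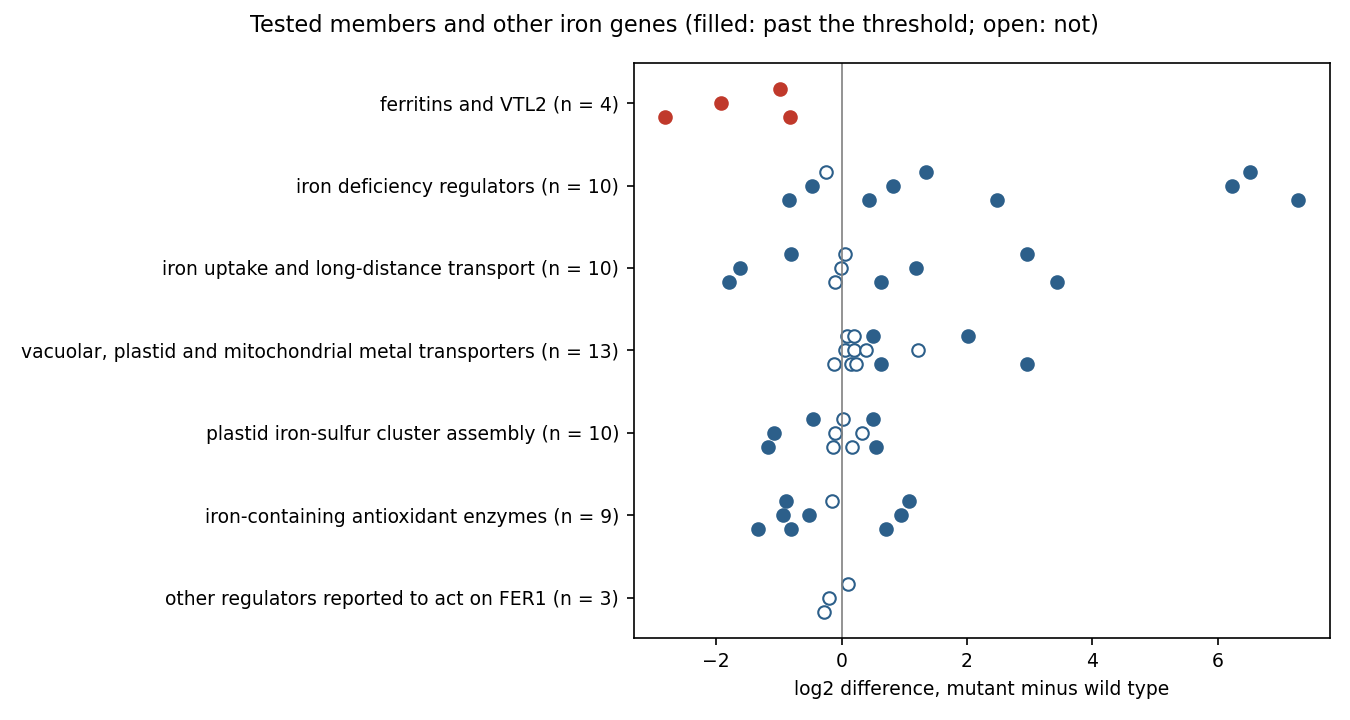
Log2 difference, mutant minus wild type (horizontal axis), of the 4 tested members in the top row and of each tested gene in the 6 lists below; filled points passed the adjusted threshold, and vertical offsets within a row only separate points. The members lie between -2.81 and -0.83; the rightmost regulator point, bHLH39, was Present on 1 wild-type array and moves between 5.98 and 8.30 with single wild-type arrays left out.

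Genes of proteins that contain or assemble iron moved both ways. Of 10 tested genes for plastid iron-sulfur cluster assembly, 2 rose and 3 fell, against 14.4% and 13.9% of all tested probe sets. The counts changed with single arrays: no gene rose without wild-type replicate 2, and 1 rose and 1 fell without mutant replicate 1; the unmoderated test left 1 rise and 0 falls. SUFB, a scaffold component, fell from 5266 ± 1015 to 2478 ± 243 (log2 difference -1.07, limma adjusted p = 0.000144). NEET, for a plastid iron-sulfur protein, gave 4585, 1336 and 2259.7 on wild-type replicates 1, 2 and 3 against 856 to 1260.1 in the mutant (log2 difference -1.17, SE 0.31, limma adjusted p = 0.0135). Wild-type replicate 1 carried much of that difference, which was -0.70 without it, and the call ended without mutant replicate 1 (limma adjusted p = 0.0605). NFU3, for an iron-sulfur cluster carrier, had 0.55 (limma adjusted p = 0.0117; 0.0559 without wild-type replicate 2). In the unmoderated test on linear signals SUFB, NEET and NFU3 lost their calls (adjusted p = 0.0628, 0.321 and 0.0910), as NEET did without the variance trend (limma adjusted p = 0.0762).

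Antioxidant enzymes that hold iron protect against the oxygen species that free iron generates. Of 9 tested, 3 rose and 5 fell, again beside 14.4% and 13.9% overall; the unmoderated test left 1 and 2. The catalase gene CAT1 fell from 3527 ± 129 to 1391 ± 45.6 (log2 difference -1.34, limma adjusted p = 3.71e-06). The iron superoxide dismutase gene FSD1 fell from 29285 ± 1473 to 16824 ± 609.7 (log2 difference -0.80, limma adjusted p = 6.45e-05). Its relative FSD2 rose from 731 ± 57.5 to 1540 ± 88.9 (log2 difference 1.08, limma adjusted p = 6.88e-05).

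For each tested member, the 2 other genes with the most similar signals over the 6 arrays were identified among 13529 candidates. The measure was the root mean square difference of log2 signals, each set to its own wild-type mean. With only 2 genotypes it mainly picks genes with a similar log2 difference, such as CSD2 (-2.91) and LAX1 (-2.96) beside FER1 (-2.81). Shared regulation was not tested. CSD2, which encodes a copper/zinc superoxide dismutase of the chloroplast, was nearest to FER1 (0.116), followed by the auxin influx carrier gene LAX1 (0.212). Nearest to FER4 were AT1G53885, titled in the deposited table as related to senescence-associated proteins (0.077), and the putative choline kinase gene AT4G09760 (0.146). SDH4, a subunit of respiratory complex II (0.044), and AT5G49990 of the xanthine/uracil permease family (0.045) were nearest to FER3, and the esterase gene MES3 (0.127) and the β-glucosidase gene BGLU16 (0.140) to VTL2.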

How the data were processed

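Total RNA of 3 mutant and 3 wild-type samples was hybridised to ATH1 arrays. Signal intensities were made with MAS5 and scaled to a mean of 1000 per array by the authors, per the file headers; its settings are not stated there. The authors also deposited detection calls, the ratio of group means and an unadjusted p-value per probe set; the ratio and p-value were recomputed as a check and are not printed. The second deposited file held the same intensities.

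Signals were analysed as log2 values without an offset; the 9 signals of 0 took the lowest other signal of their array. Probe sets Present on at least 3 of 6 arrays were tested with limma 3.58.1 in R 4.3.3 (lmFit, eBayes with an intensity trend, two-sided, Benjamini-Hochberg over all 13626). Sign is mutant minus wild type. Fold and percent differences between the genotypes were taken from the log2 differences, so they can differ slightly from ratios of the printed means. The code was tested on simulated data. The number of arrays limits the precision (median SE 0.18). An exact permutation test of 3 against 3 arrays was not run, as it cannot reach the threshold. Members and lists were chosen with earlier results of these data known. Named genes are all members, up to 3 genes a list by smallest adjusted p, and the 2 nearest profiles. PYE, ILR3, bHLH104, URI, IRT1, YSL6, NAS1 and NAS3 were named after their values were seen. Symbols come from the RefSeq table of TAIR10.1 or the lists; no coordinates are given because the table names no build.

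Alternatives were the replicate block, other detection filters, no variance trend, array weights, quantile or median scaling, an offset of 32, an unmoderated test, and leaving out each array.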

Additional observations from a re-analysis of the deposited data

How the results depend on the processing

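Log2 differences of FER1, FER3, FER4 and VTL2 stayed within 1 SD of the replicates in all 15 alternatives, but most of these could not end otherwise. The replicate block, the detection filters and the fit without a variance trend leave the log2 difference unchanged by construction. Leaving out 1 of 3 arrays cannot move it by 1 SD. Without the detection filter all 10 members entered and their median was -0.57 (0.04 over all probe sets); 5 passed, VTL5 being the addition, although it had no Present call. The unmoderated test on linear signals called 1694 probe sets in place of 3865, 19 other iron genes in place of 33, and 3 members, VTL2 not among them. With 1 array left out, between 2679 and 3638 probe sets and 27 to 33 other iron genes passed. With Present calls required on all 6 arrays 4 regulators rose in place of 7, because bHLH39, bHLH101 and IMA1 no longer entered, and regulator falls went from 2 to 1 under 9 alternatives. Same-numbered arrays did not deviate together (correlations 0.023, 0.020 and 0.032), though each correlated best with its own number; with the replicate block 3737 probe sets, 4 members and 32 other iron genes passed. Values below the lowest Present signals have no reliable order.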
